A study of Mus musculus with 12 samples.

Results

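The clock output and REV-ERB/ROR arm genes described here are Dbp, Tef, Hlf, Nfil3, Nr1d1, Nr1d2, Usp2, Bhlhe40 and Bhlhe41. They were chosen by symbol, and all 9 have an entry among the 25033 entries of the deposited Ribo-seq table. In Ribo-seq, lysate is digested with nuclease and the pieces of RNA left under ribosomes, called footprints, are sequenced, so the reads of a gene reflect how many ribosomes sat on its transcripts. The livers came from male C57BL/6 mice aged 16 weeks that had eaten a high-fat diet for 8 weeks from the age of 8 weeks (HFD), or a high-fat diet with lycopene, a carotenoid of tomatoes, over the same period (LYC). Each group had 3 Ribo-seq libraries, numbered as in the labels. For the LYC samples the treatment label gives the high-fat diet alone, and lycopene is known from their titles and the study's methods. The labels also say that material of the groups was pooled before library construction, so that the spread between the 3 libraries of a group may be partly technical and p-values measure only that spread. In the paper the libraries are named biological replicates, so it is not settled whether a library holds a single mouse. The hour at which the livers were taken is not given in the sources used here, so diet and hour of collection cannot be told apart if the hour differed between the groups.

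The circadian clock of liver cells is a transcription loop in which CLOCK and BMAL1 bind E-box elements and switch on their own repressors together with a set of output genes. Dbp, Tef and Hlf encode the PAR bZIP activators, which bind D-box elements in genes of drug, heme and lipid metabolism, and Nfil3 encodes a repressor of the same elements. Nr1d1 and Nr1d2 encode the nuclear receptors REV-ERB alpha and REV-ERB beta, which repress Bmal1 and many lipid genes at elements that ROR receptors activate, while Bhlhe40 and Bhlhe41 (DEC1 and DEC2) repress through E-boxes and Usp2 encodes a deubiquitinase whose level cycles strongly in liver. Many of these transcripts are short-lived, and their level in liver swings widely over a day.

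The sequences just upstream of the annotated 5′ end of Dbp, Tef and Nr1d1, and upstream of an internal start of Usp2, are shown because Dbp, Tef and Usp2 were the genes called in the comparison below and Nr1d1 holds an E-box variant. They are RefSeq sequences of GRCm38.p6, the assembly behind the mm10 build named in the submitters' processing notes, and are written 5′ to 3′ on the strand of the gene, with matches to the searched motifs in capitals. RefSeq promoter windows were found for 8 of the 9 genes (not Bhlhe40), with 2 windows for Tef. The Usp2 window precedes a start 17899 bases downstream of the 5′ end of the annotated gene, the Nfil3 window one 1839 bases downstream and the second Tef window one 8741 bases downstream. The Dbp window precedes a start 147 bases downstream, and only the first 103 of its 250 bases, those before an annotated exon begins, are shown. The second Tef window begins within an annotated exon and is not shown.
Dbp, chr7:45704997-45705099, plus strand: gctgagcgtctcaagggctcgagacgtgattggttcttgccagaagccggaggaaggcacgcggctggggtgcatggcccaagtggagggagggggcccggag
Usp2, chr9:44084820-44084919, plus strand: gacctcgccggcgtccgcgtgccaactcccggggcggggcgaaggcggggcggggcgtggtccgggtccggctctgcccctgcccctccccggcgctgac
Tef, chr15:81802423-81802672, plus strand: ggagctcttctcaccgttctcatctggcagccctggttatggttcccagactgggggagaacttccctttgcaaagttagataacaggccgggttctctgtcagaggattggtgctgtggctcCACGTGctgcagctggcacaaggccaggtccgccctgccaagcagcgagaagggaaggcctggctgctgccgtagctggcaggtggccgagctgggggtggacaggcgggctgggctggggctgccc
Nr1d1, chr11:98775378-98775477, minus strand: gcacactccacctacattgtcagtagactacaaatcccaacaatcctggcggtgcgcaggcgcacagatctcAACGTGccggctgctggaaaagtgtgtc
The windows searched were the 250 bases upstream of each RefSeq start, on both strands. The E-box CACGTG, which reads the same on both strands, lay 127 bases upstream of the Tef start shown, 138 bases upstream of the other Tef start and 153 bases upstream of Bhlhe41, against 6.02% of 32851 RefSeq promoters. The variant CACGTT, or AACGTG on the other strand, lay 28 bases upstream of Nr1d1 and was held by 3.85% of all promoters. The core REV-ERB/ROR element TAGGTCA, or TGACCTA on the other strand, lay 12 bases upstream of the internal Nfil3 start and was held by 2.23% of all promoters. It lay in the part of that window that follows the beginning of an annotated exon of the gene. None of these windows held the D-box TTANGTAA, or TTACNTAA on the other strand, which 2.06% of all promoters hold. The motifs do not overlap one another in these windows, and a match is a description of the letters only.

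Levels are given as the deposited RPKM, reads scaled to the length of the gene and the size of the library, in libraries 1, 2 and 3 of each group. The steps between RPKM values gave library totals of 2726202, 4405541 and 834410 reads in HFD and of 394461, 311050 and 412116 reads in LYC, and from them the whole number of reads behind each value. The comparison of LYC with HFD used the two-sided moderated test of limma on log2(RPKM / TMM factor + 1), in which TMM factors are the scaling between libraries that edgeR computes, and fold changes are on that scale, which understates the change of low genes. The limits for a call were a log2 fold change beyond 1 in either direction with p below 0.01 before adjustment. The limit on p is the looser of the pair that the paper's text names, and at the stricter one the calls of Dbp and Usp2 held and that of Tef was lost. That stricter limit is p below 0.001. Adjusted p-values are Benjamini-Hochberg values over all 5776 genes that passed a filter on low reads. Genes called higher in LYC made up 6.99% of the genes tested, those called lower 6.32%, and the median log2 fold change over all of them was -0.10. Of the 9 clock output genes, 8 were tested, 3 of these were called higher and 0 lower, and their median log2 fold change was 0.34. Over the alternatives this median ran from 0.06 to 0.52, with 0.06 under scaling by total reads, 0.09 without LYC1 and 0.13 without HFD1. By edgeR and by DESeq2 on the recovered reads these counts were also 3 and 0, and Hlf alone was lower at an unadjusted p below 0.05 by limma. The filter asked for 16.0 CPM, the reads of a gene scaled to library size alone, in at least 3 libraries. Dbp and Usp2 passed it through the LYC libraries alone, where they were high, and Hlf, Nfil3 and Nr1d1 passed it in every HFD library but not in every LYC library, so the share called among those that passed is not a result by itself.

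**Figure D1:**
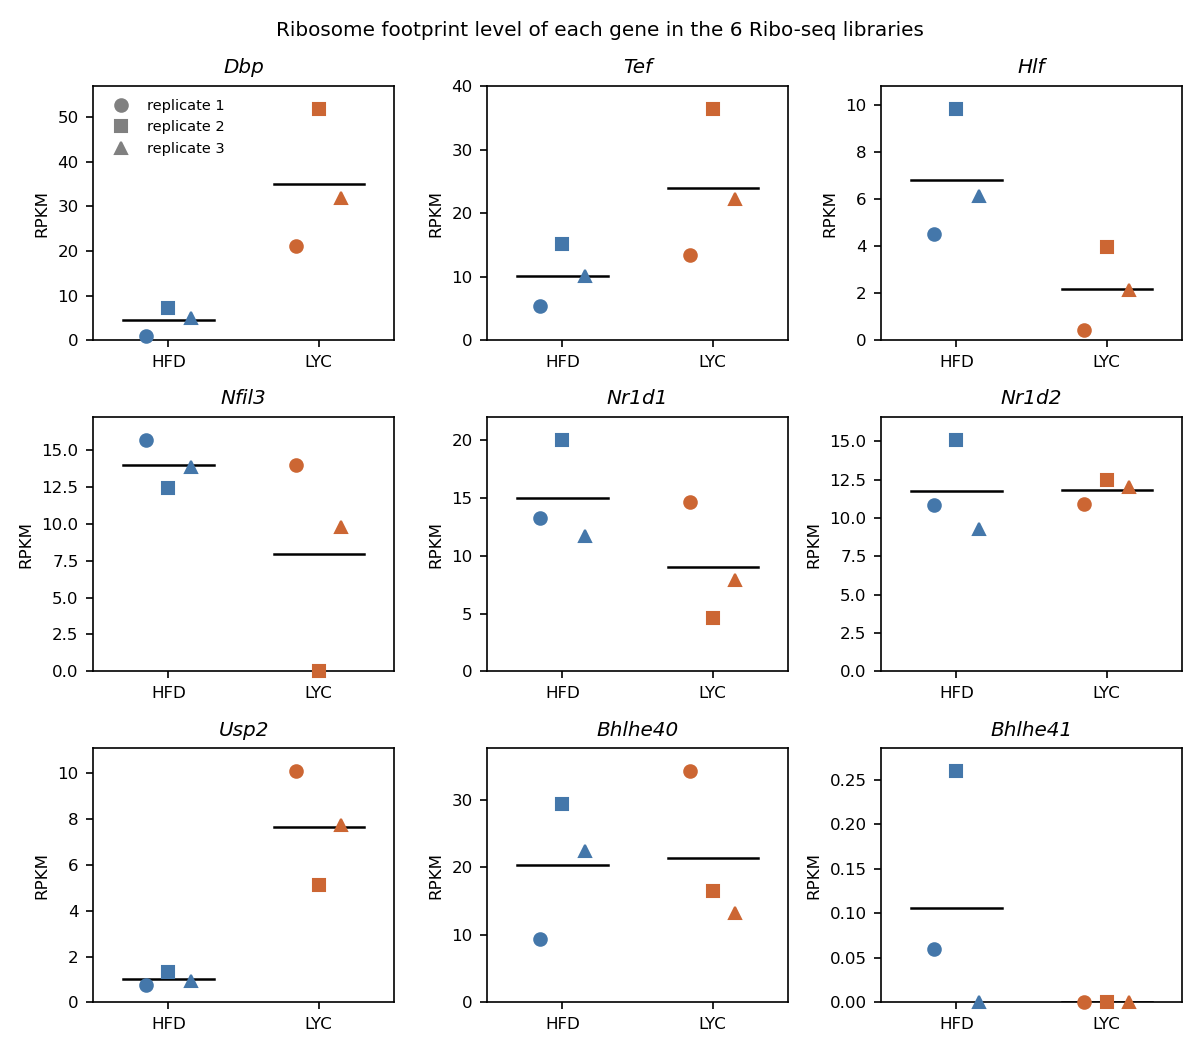
Ribosome footprint level in RPKM (linear axes from 0) of the 9 genes in each Ribo-seq library of the HFD group (blue) and the LYC group (orange), with symbols for the replicate number and a line at the group mean (n = 3). Dbp and Usp2 were higher in every LYC library than in every HFD library, while Nr1d2 and Bhlhe40 overlapped between the groups.

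Ribosome footprints on Dbp, the D-box activator whose transcript has among the widest daily swings known in liver, rose in LYC. Dbp lies at chr7:45705100-45710203 on the plus strand. Its level was 1.09, 7.30 and 5.00 RPKM in HFD and 21.2, 51.7 and 31.8 RPKM in LYC, from 5, 54 and 7 reads and from 14, 27 and 22 reads. The groups did not overlap, and the lowest LYC library was above the highest HFD library. The mean level was 4.47 ± 3.14 RPKM in HFD and 34.9 ± 15.5 RPKM in LYC (SD, n = 3 each), a ratio of 7.81. The fitted log2 fold change was 3.10 (SE 0.49, 95% confidence interval 1.99 to 4.22, adjusted p = 0.00742 by limma), the 54th highest of the 5776 genes tested. The call held in all 20 alternatives, with adjusted p from 1.76e-06 to 0.0276. The exons of Dbp share 539 bases, 21.4% of its exonic bases, with Sphk2 on the opposite strand, and since strand-aware counting is not stated, reads on those bases cannot be told apart.

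Tef, a second PAR bZIP activator with a broader expression than Dbp, was also called higher, by a smaller margin. It lies at chr15:81802673-81826863 on the plus strand. The level was 5.39, 15.1 and 10.1 RPKM in HFD and 13.4, 36.4 and 22.2 RPKM in LYC, from 61, 277 and 35 reads and from 22, 47 and 38 reads. In RPKM the lowest LYC library fell below the highest HFD library, whereas after division by the TMM factors all LYC libraries were above all HFD libraries. The mean was 10.2 ± 4.88 RPKM in HFD and 24.0 ± 11.6 RPKM in LYC (SD, n = 3 each), a ratio of 2.35. Its log2 fold change was 1.42 (SE 0.40, 95% confidence interval 0.52 to 2.33, unadjusted p = 0.00618 and adjusted p = 0.0522 by limma). The call was lost with scaling by total reads (1.15, adjusted p = 0.113), without HFD1 (1.11, 0.188), HFD3 (1.52, 0.150), LYC2 (1.15, 0.0908) or LYC3 (1.43, 0.0645), and its adjusted p by limma, edgeR or DESeq2 ran from 0.00548 to 0.188 over the alternatives.

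Hlf, the third PAR bZIP activator, stood in the opposite direction and did not reach the call. It lies at chr11:90336535-90390917 on the minus strand. Its level was 4.53, 9.82 and 6.14 RPKM in HFD and 0.448, 3.97 and 2.14 RPKM in LYC, and the 3 LYC values rest on 1, 7 and 5 reads against 70, 245 and 29 reads in HFD. Every LYC library was below every HFD library, but counting error is wide here, with 95% Poisson limits of 0.0113 to 2.49 RPKM in LYC1 and of 1.60 to 8.18 RPKM in LYC2. The mean was 6.83 ± 2.71 RPKM in HFD and 2.19 ± 1.76 RPKM in LYC (SD, n = 3 each). The fitted change was -1.22 on the log2 scale (SE 0.46, 95% confidence interval -2.27 to -0.16, adjusted p = 0.123 by limma), and it passed the call only without LYC2 (-1.59, adjusted p = 0.0464).

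The 3 activators can be compared within a library, where the scaling between libraries has no part. This comparison was chosen after the values were seen. Dbp made up 9.92%, 22.6% and 23.5% of the summed RPKM of Dbp, Tef and Hlf in the libraries of HFD and 60.4%, 56.2% and 56.6% in those of LYC. The share of Tef was 48.9%, 46.9% and 47.6% in HFD and 38.4%, 39.5% and 39.5% in LYC. That of Hlf was 41.1%, 30.4% and 28.9% in HFD and 1.28%, 4.31% and 3.81% in LYC. Shares of the 3 genes sum to the whole, so they are 1 comparison and not 3, and they are given as a description with no test. The lower share of Tef in LYC stood beside a higher level of Tef itself. The summed level was 11.0, 32.3 and 21.2 RPKM in HFD and 35.0, 92.1 and 56.2 RPKM in LYC.

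**Figure D2:**
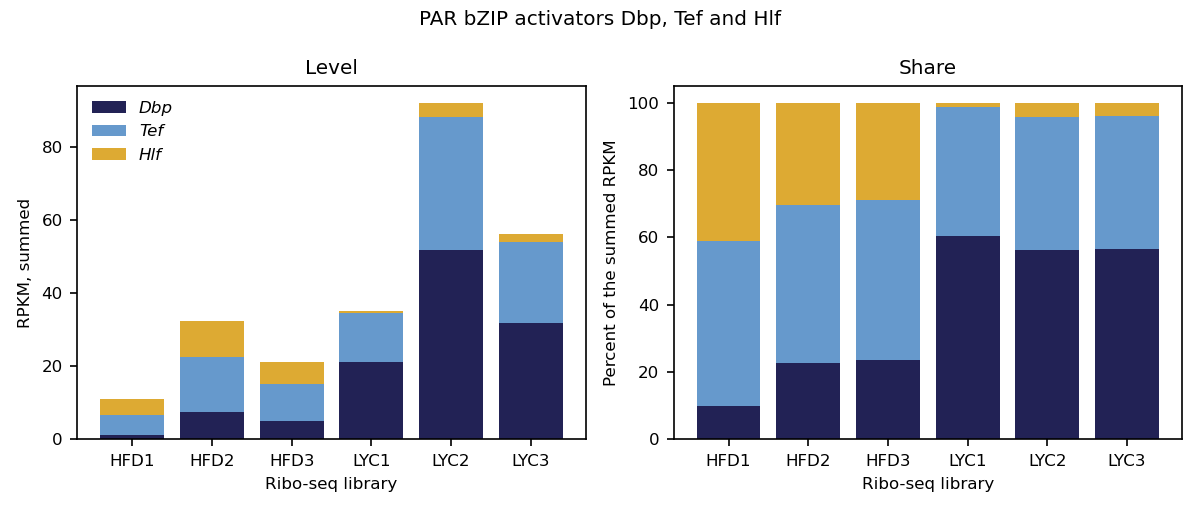
Stacked RPKM of the PAR bZIP activators Dbp, Tef and Hlf in each Ribo-seq library (left, linear axis from 0) and the percent that each makes up of their sum (right). Dbp held 56.2% to 60.4% of the sum in the LYC libraries and 9.92% to 23.5% in the HFD libraries.

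Footprints on Usp2 rose in LYC as well. Usp2 encodes an enzyme that removes ubiquitin from target proteins, PER1 and CRY1 among those reported, and lies at chr9:44067021-44095627 on the plus strand. The level was 0.778, 1.32 and 0.954 RPKM in HFD and 10.1, 5.12 and 7.72 RPKM in LYC, from 8, 22 and 3 reads and from 15, 6 and 12 reads. The groups did not overlap, and HFD3 lies at the level that 3 reads are worth there, 0.953 RPKM. The mean was 1.02 ± 0.279 RPKM in HFD and 7.64 ± 2.49 RPKM in LYC (SD, n = 3 each), a ratio of 7.50. On the log2 scale the change was 2.28 (SE 0.37, 95% confidence interval 1.43 to 3.12, adjusted p = 0.00801 by limma), and the call held in all 19 alternatives that tested it, with values from 1.18 at a pseudocount of 5 to 3.25 by DESeq2 on reads. The adjusted p ran from 2.26e-07 by DESeq2 on reads to 0.0546 by limma without HFD3. The exons of Usp2 share 275 bases, 4.3% of the total, with the long non-coding RNA gene Gm39325 on the opposite strand.

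Nfil3, the repressor that competes with the PAR bZIP proteins for D-boxes, was not called. It lies at chr13:52967209-52982878 on the minus strand. Its level was 15.7, 12.4 and 13.8 RPKM in HFD and 14.0, 0 and 9.74 RPKM in LYC. The HFD libraries were close together, LYC1 lay among them, and LYC2 held no read, which allows up to 4.84 RPKM there (3 reads, counting error only). At the mean HFD level of 14.0 RPKM, LYC2 would have held 8.66 reads. The log2 fold change of -1.18 (SE 0.94, 95% confidence interval -3.31 to 0.96, adjusted p = 0.430 by limma) rested on LYC2, and without it the value was 0.11 (adjusted p = 0.834). With all libraries kept, the value ran from -2.25 at a pseudocount of 0.1 to -0.41 by edgeR on reads.

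The REV-ERB genes did not pass the test in either direction. Nr1d1, at chr11:98767932-98775377 on the minus strand, had 13.3, 20.0 and 11.7 RPKM in HFD and 14.7, 4.65 and 7.90 RPKM in LYC, from 100, 244 and 27 reads and from 16, 4 and 9 reads. LYC2 and LYC3 were below all HFD libraries, and LYC1 lay between HFD1 and HFD2. Its fitted log2 fold change was -0.48 (SE 0.45, 95% confidence interval -1.50 to 0.54, adjusted p = 0.501 by limma). Nr1d1 moved to -0.06 without LYC2 and to -0.95 without LYC1. Its exons share 471 bases, 17.0% of the total, with Thra on the opposite strand, the thyroid hormone receptor gene, so reads on those bases cannot be assigned to either gene. Nr1d2, at chr14:18204056-18239106 on the minus strand, had the most similar group means in RPKM of the 8 clock output genes tested. Its level was 10.8, 15.1 and 9.30 RPKM in HFD and 10.9, 12.5 and 12.0 RPKM in LYC. After division by the TMM factors, all its LYC libraries were above all its HFD libraries. The means of 11.7 ± 2.99 RPKM and 11.8 ± 0.795 RPKM (SD, n = 3 each) nearly coincide, and the log2 fold change after TMM scaling was 0.31 (SE 0.27, 95% confidence interval -0.32 to 0.93, adjusted p = 0.484 by limma). A rise of Nr1d2 of up to that upper limit cannot be told from no change at this depth.

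Of the E-box repressors, Bhlhe40 had the highest mean of the 9 genes in HFD, although it ranked 4 in HFD1. Bhlhe41 had the lowest mean in both groups, but with 0 reads in LYC it could not be ordered against Hlf there. Bhlhe40, at chr6:108660629-108666925 on the plus strand, had 9.43, 29.4 and 22.3 RPKM in HFD and 34.2, 16.5 and 13.3 RPKM in LYC, from 80, 403 and 58 reads and from 42, 16 and 17 reads. The exons of Bhlhe40 share 118 bases, 3.8% of the total, with the long non-coding RNA gene 0610040F04Rik on the opposite strand. The libraries of each group spread over a factor of 3.12 in HFD and 2.58 in LYC, and the groups overlapped. The log2 fold change was 0.37 (SE 0.49, 95% confidence interval -0.75 to 1.48, adjusted p = 0.647 by limma), and its sign turned without HFD1 (-0.04) or LYC1 (-0.10). Bhlhe41, at chr6:145858243-145865420 on the minus strand, had 1, 7 and 0 reads in HFD (0.0599, 0.259 and 0 RPKM) and 0 reads in each LYC library, which allows up to 1.19 to 1.57 RPKM there. The filter removed it, an exact two-sided permutation test over the 6 libraries gave p = 0.4, and no fold is given.

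**Figure D3:**
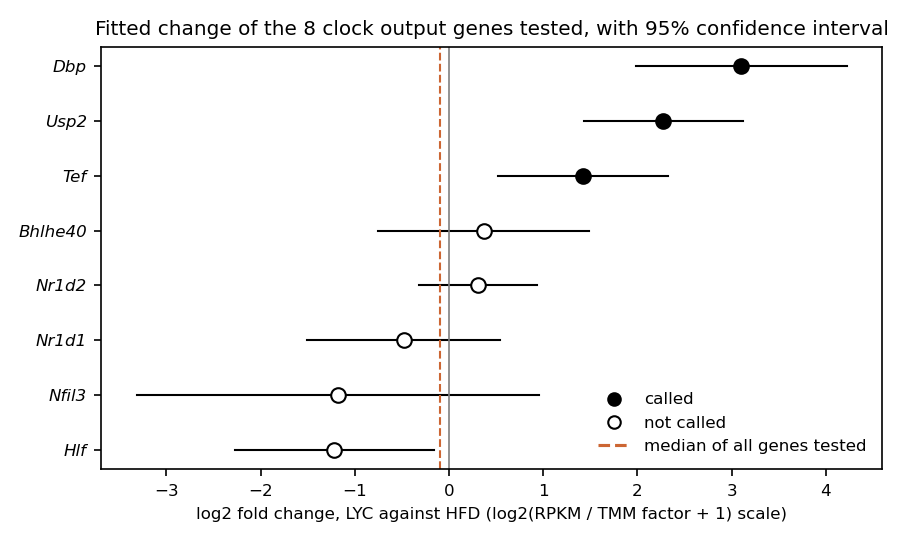
Log2 fold change of LYC against HFD with its 95% confidence interval for the 8 genes tested, on the log2(RPKM / TMM factor + 1) scale, with filled points for called genes and a dashed line at the median of all genes tested (-0.10). Dbp, Usp2 and Tef lie above 1 with intervals above 0, and the intervals of Bhlhe40, Nr1d2, Nr1d1 and Nfil3 span 0.

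Groups that do not overlap are frequent in these libraries. In RPKM, 9.87% of the genes tested had all LYC libraries above all HFD libraries and 27.5% had them all below, and after division by the TMM factor these shares were 18.7% and 18.9%. In RPKM, Dbp and Usp2 were among the first and Hlf among the second. After TMM, Tef and Nr1d2 joined the first. The order of the genes by mean RPKM in HFD was Bhlhe40, Nr1d1, Nfil3, Nr1d2, Tef, Hlf, Dbp, Usp2 and Bhlhe41, and in LYC it was Dbp, Tef, Bhlhe40, Nr1d2, Nr1d1, Nfil3, Usp2, Hlf and Bhlhe41. In HFD each gene from Bhlhe40 to Hlf overlapped with its neighbour in that order, and so did Hlf and Dbp. Dbp and Usp2 overlapped there too, since Dbp in HFD1 (1.09 RPKM) lay below Usp2 in HFD2 (1.32 RPKM). Usp2 and Bhlhe41 did not overlap. In LYC the neighbours that did not overlap were Bhlhe40 and Nr1d2, and Usp2 and Hlf. Hlf and Bhlhe41 could not be ordered there, since Hlf in LYC1 (0.448 RPKM) lay below what 0 reads of Bhlhe41 allow. Dbp ranked 7 of 9 in each HFD library and 1 or 2 in the LYC libraries. The ratio of Dbp to Nr1d1, 2 genes under the same E-box activators, was 0.0824, 0.365 and 0.427 in HFD and 1.44, 11.1 and 4.03 in LYC.

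Genes reported to lie downstream of these factors, or beside them in the clock, were taken from lists chosen with earlier results of these data known, and each list is described by its counts beside the medians and shares of all genes given above. Of 10 genes reported under PAR bZIP control, 8 were tested and 2 were called higher, 0 lower. These were Por, the electron donor of the cytochromes P450, with a mean of 35.9 RPKM in HFD and 125.9 RPKM in LYC (log2 fold change 2.07, adjusted p = 0.00166 by limma), and Alas1, the rate-limiting enzyme of heme synthesis, with 110.3 and 251.2 RPKM (1.48, adjusted p = 0.00745 by limma). The median log2 fold change of the 8 was 0.69, and it ran from 0.37 to 0.91 over the alternatives. Of 10 genes reported under REV-ERB or ROR control, 8 were tested, 1 was called higher and 3 were called lower, with a median of -0.72 (-1.01 to -0.58 over the alternatives). The 3 that fell were Elovl3, a fatty acid elongase, from a mean of 149.2 to 33.1 RPKM (-1.82), Cyp8b1, the sterol 12-alpha-hydroxylase of bile acid synthesis, from 226.6 to 73.1 RPKM (-1.35), and Insig2, which retains SREBP precursors in the endoplasmic reticulum, from 122.6 to 39.7 RPKM (-1.31). Lpin1, a phosphatidate phosphatase of triglyceride synthesis, rose from 11.6 to 94.0 RPKM (3.21, adjusted p = 0.000714 by limma). The call of Cyp8b1 was lost without HFD1 or LYC1, and the other calls of both lists held in all 18 other fits.

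The 4 tested genes among 6 other E-box outputs were all called higher, their median was 1.79 on the log2 scale, and they stayed so in all 18 other fits. Upp2, a liver uridine phosphorylase, went from a mean of 18.5 to 252.1 RPKM (3.96) and Gys2, the liver glycogen synthase, from 41.4 to 163.7 RPKM (2.09). Nampt, the rate-limiting enzyme of NAD salvage, went from 9.31 to 22.8 RPKM (1.49) and Tspan4, a tetraspanin, from 22.7 to 51.4 RPKM (1.45). Of the 12 core clock genes, 7 were tested, with Clock called lower (6.93, 7.76 and 5.29 against 1.30, 2.64 and 1.49 RPKM, log2 fold change -1.25) and Per2 called higher (1.32, 2.61 and 1.64 against 3.91, 6.61 and 3.33 RPKM, 1.17). Per2 passed the filter on low reads through the LYC libraries alone, and Clock in every HFD library but only 1 LYC library. Both calls were lost without HFD1, HFD2 or HFD3. They were also lost with a block on replicate number, with no filter on low reads and at a pseudocount of 5. Clock was called in 10 and Per2 in 6 of 17 other fits. Arntl, the BMAL1 gene and the best known target of REV-ERB, had 58, 41 and 15 reads in HFD (7.39, 3.23 and 6.24 RPKM) and no read in any LYC library, and the filter removed it. The filter also removed Npas2, with 33, 13 and 5 reads in HFD and 0 in each LYC library. Per3 (mean 0.501 against 1.45 RPKM) and Ciart (0.516 against 6.00 RPKM) were removed too. Both had every LYC library above every HFD library, on 1 to 6 reads in each LYC library. Rorb had 0 reads throughout. Rora had every LYC library below every HFD library and was not called (79.0 against 37.8 RPKM, -0.77, adjusted p = 0.118 by limma). None of 7 tested enzymes that act on clock proteins, out of 12 listed, was called with limma, edgeR or DESeq2, or had an unadjusted p below 0.05 with limma, and Csnk1a1, a casein kinase, was the most abundant of them at a mean of 19.3 RPKM over the 6 libraries (0.21, adjusted p = 0.605 by limma). The median of the core clock genes was 0.09 and ran from -0.34 to 0.53 over the alternatives, and that of the enzymes was -0.01 and ran from -0.28 to 0.22, so neither has a settled direction.

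**Figure D4:**
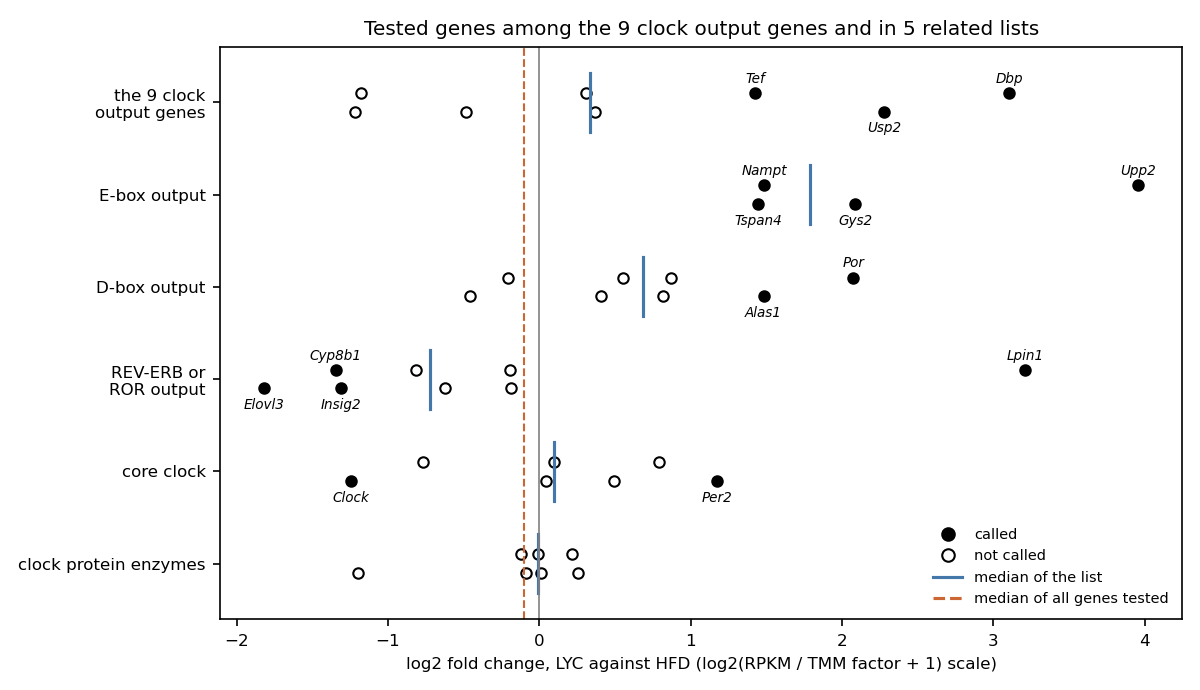
Log2 fold change of LYC against HFD for the tested genes of the 9 clock output genes and of 5 related lists, with filled points and names for called genes, a blue bar at the median of each list and a dashed line at the median of all genes tested (-0.10). The medians were 0.34 for the 9 clock output genes, 1.79 for other E-box outputs, 0.69 for D-box outputs, -0.72 for REV-ERB or ROR outputs, 0.09 for the core clock and -0.01 for the clock protein enzymes, and the last pair changed sign over the alternatives (-0.34 to 0.53 and -0.28 to 0.22).

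The libraries labelled mRNA were deposited as counts in a second table, and they are not an independent readout of these genes. Over 8311 genes with at least 60 reads, 78.4% to 87.3% of the genes of each library labelled mRNA were within 10% of the reads of 1 Ribo-seq library, and at most 12.5% within 10% of the next. The LYC libraries matched the Ribo-seq libraries of the same number, and libraries HFD1, HFD2 and HFD3 labelled mRNA matched Ribo-seq HFD2, HFD3 and HFD1. For the 9 clock output genes, 36 of 54 values were the same number of reads, and the largest difference was 13 reads. With edgeR's quasi-likelihood test on those counts, 7 of the 9 were tested, 2 were called higher and 0 lower, against 9.31% and 7.33% of 5921 genes. Dbp had a log2 fold change of 3.25 (adjusted p = 0.000283) and Tef of 1.52 (adjusted p = 0.00783), Hlf of -1.42 (adjusted p = 0.0655), and the filter removed Usp2 and Bhlhe41. Footprints per messenger RNA, the translational efficiency, were therefore not tested.

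Depth, RNA classes and cell type markers are given here for the libraries of both groups. The HFD libraries were deeper, with a median total 6.91 times that of LYC. Small non-coding RNA genes held 2.47% to 3.94% of the reads in HFD and 8.42% to 13.0% in LYC, and the TMM factors were 1.03 to 1.26 in HFD and 0.801 to 1.00 in LYC. Scaling by total reads instead moved the median change of all genes tested by -0.26 on the log2 scale, TMM factors computed before the filter, an alternative added after the data were seen, by -0.14, the filter on a mean of 10 RPKM by 0.19 and removal of the length trend by 0.12. The summed RPKM of 8 hepatocyte markers was 39585 to 43621.5 in HFD and 28238 to 36751 in LYC, with Tat called higher, also in all 18 other fits, and Cps1 called higher, also in 10 of them, and with Serpina1c called lower with total library size. The largest part of that sum was Alb, at 25585 to 29641 RPKM in HFD and 13379 to 22447 RPKM in LYC. Of the 8 markers, 4 were higher and 4 lower, with a median log2 fold change of 0.09 (-0.21 to 0.23 over the alternatives). By limma as reported, none of 8 macrophage, 5 endothelial, 4 stellate and 2 red blood cell markers tested was called. The macrophage marker Vsig4 was called higher by edgeR and DESeq2 on the recovered reads and without LYC3, the endothelial marker Pecam1 was called lower with total library size, with TMM factors computed before the filter and without LYC1, and without LYC2 the macrophage marker Lyz2 was called lower and the endothelial markers Clec4g and Oit3 higher. The median log2 fold change of the endothelial markers ran from -0.89 without LYC3 to 0.69 without LYC2. None of the 5 cholangiocyte and 4 lymphocyte markers passed the filter. The summed RPKM was 15.4 to 25.03 in HFD and 2.89 to 9.25 in LYC for cholangiocytes, with Krt19, Krt7 and Epcam at 0 in LYC, and 3.20 to 4.31 against 0.612 to 2.77 for lymphocytes, with Cd3e and Cd79a at 0 in LYC and Nkg7 at 0 in every library. Spp1 had the highest mean of the cholangiocyte markers, with 20.3, 20.1 and 10.3 RPKM in HFD. In LYC it had 1.67, 8.48 and 4.80 RPKM, from 1, 4 and 3 reads. Its groups did not overlap, but it was not tested. The 5 genes at 0 in LYC alone had 5 to 16 reads in the HFD libraries together, so at the depth of the LYC libraries their zeros do not show a change. The part of these features in the changes of the clock output genes was not tested, and in bulk tissue fewer cells of a type and less RNA per cell cannot be told apart.

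**Figure D5:**
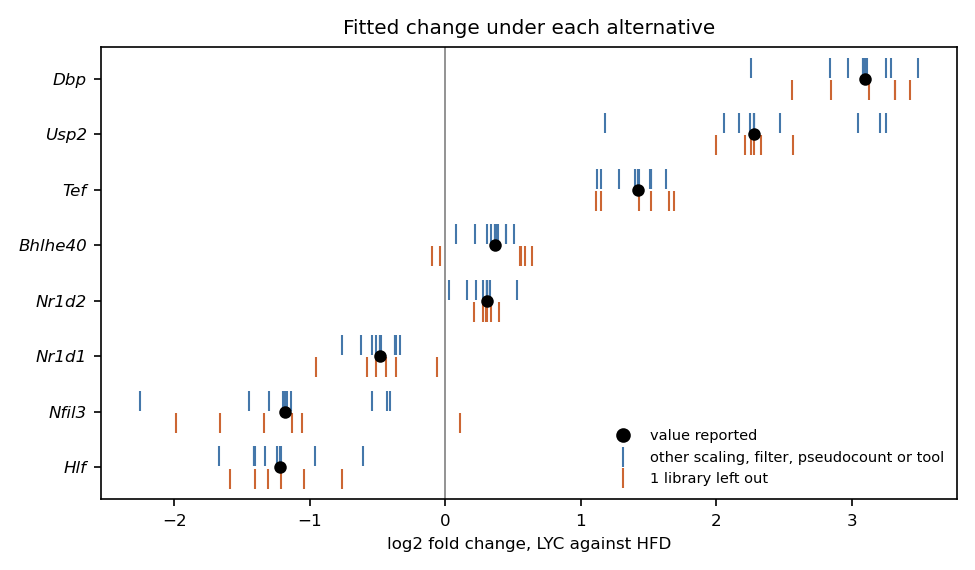
Log2 fold change of LYC against HFD for the 8 genes tested as reported (black points), under other scalings, filters, pseudocounts and tools (blue ticks) and with 1 library left out (orange ticks). Dbp ranged from 2.26 to 3.49, Usp2 from 1.18 to 3.25 and Tef from 1.11 to 1.69, and Nfil3 and Bhlhe40 crossed 0 with 1 library left out.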

How the data were processed

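Livers of HFD and LYC mice were profiled by Ribo-seq (6 libraries), and 6 further libraries are labelled mRNA. According to the study's methods and the submitters' processing notes, the authors trimmed reads with cutadapt, removed reads with Bowtie2, aligned to GRCm38/mm10 with STAR and quantified genes with FANSE2. Versions are not given in the sources used here. The authors deposited RPKM values for the Ribo-seq libraries, and read counts with RPKM values for the libraries labelled mRNA.

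Among the 25033 Ribo-seq entries, the names of 26 had become dates, and 4 entries with a duplicated name were not tested. Reads behind each RPKM were recovered from its steps with the gene lengths of the second table (11129 of the 15749 genes above 0) or a length fitted to the gene (4620 genes, among them Tef and Usp2). The deposited unit was RPKM, so limma 3.58.1 was used on log2(RPKM / TMM factor + 1), with TMM and filterByExpr of edgeR 4.0.16 on the recovered reads. The tests of edgeR and DESeq2 1.42.0 on reads were alternatives. Bhlhe41, removed by the filter, had an exact permutation test. Counts labelled mRNA went into the quasi-likelihood test of edgeR. In a simulation of the limma fit at these depths, 195 of 200 changed genes and 48 of 5796 unchanged genes were called, the former with the right sign. The changed genes were drawn only from genes above a set number of expected reads in the shallowest library. All had the same size of change, larger than the limit for a call, and the spread between libraries was a set value. These shares therefore do not apply to genes with fewer reads, such as Dbp and Usp2, or to changes near the limit.

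The 9 genes and all lists were chosen with earlier results of these data known, and the tests and alternatives after the paper had been read. All 9 genes are named whatever their values. From the lists, called genes are named, and the most abundant gene where none was called. Core clock genes are named by that rule, Arntl and Rora by their values, and the other untested core clock genes beside Arntl. Alternatives were other pseudocounts, filters, scalings, limits and tools, a block on replicate number, removal of a trend with gene length, and leaving out each library. 1 planned marker gene is not reported here. Poisson limits and floors cover counting error only, whereas confidence intervals of fold changes come from the spread between libraries. R 4.3.3, Python 3.11.15, pandas 2.3.3, scipy 1.17.1 and matplotlib 3.10.9 were used.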

Additional observations from a re-analysis of the deposited data

How the results depend on the processing

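Dbp and Usp2 kept their call in every alternative that tested them. Nr1d1 and Nr1d2 kept their direction without a call. Their values closest to no change were -0.06 for Nr1d1 without LYC2 and 0.03 for Nr1d2 with total library size. Tef lost its call with total library size, with TMM factors computed over all genes before the filter (1.28, an alternative chosen after seeing the data), with p below 0.001, with adjusted p below 0.05, and without HFD1, HFD3, LYC2 or LYC3 (values from 1.11 to 1.69 over libraries left out). Nfil3 reversed without LYC2 (0.11, range -1.99 to 0.11), and Bhlhe40 without HFD1 (-0.04) or LYC1 (-0.10, range -0.10 to 0.64). In the libraries labelled mRNA, Nfil3 reversed without LYC2 (range -1.09 to 0.18) and Bhlhe40 without LYC1 (range -0.21 to 0.74). The cause was not tested. The clock output genes called lower numbered 0, and 0 to 1 over libraries left out, the 1 being Hlf. In the libraries labelled mRNA this range was also 0 to 1, and 1 without the filter, again Hlf (-1.60). Over all genes, 404 were called higher and 365 lower. The number higher became 235 with total library size and 196 with p below 0.001. The number lower became 222 with pseudocount 5, 710 with no filter, 178 with the filter on mean RPKM, 651 with total library size, 101 with p below 0.001, and 151 to 576 with 1 library left out. In the libraries labelled mRNA the number lower became 988 with no filter. Nothing in the labels pairs libraries of the 2 groups by replicate number. Deviations of equally numbered libraries correlated at 0.108, 0.0262 and 0.00731. With 3 libraries per group these values cannot settle whether equally numbered libraries share more than the number. With the replicate block, 397 genes were called higher and 340 lower, and 3 clock output genes higher and 0 lower (Dbp 3.10, Tef 1.42 and Usp2 2.28). Clock and Per2 lost their calls in that fit. Depth limits what can be said of Hlf, Nfil3, Nr1d1, Usp2 and Bhlhe41, which rest on 0 to 16 reads in each LYC library.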

Other observations

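Within a group, several of these genes shared the order of the libraries. In HFD, Dbp, Tef, Hlf, Usp2 and Bhlhe40 were lowest in HFD1 and highest in HFD2, 5 of the 8 genes tested. In LYC, Dbp, Tef, Hlf and Nr1d2 were lowest in LYC1 and highest in LYC2 by RPKM, while Nfil3, Nr1d1 and Usp2 were lowest in LYC2 and highest in LYC1. After division by the TMM factors the order of Nr1d2 was reversed, with 13.6, 12.4 and 13.2 in LYC1, LYC2 and LYC3. The order of Hlf in LYC rests on 1, 7 and 5 reads. The share of all genes tested that has each order was not computed. The ratio of Nr1d1 to Nr1d2 was 1.22, 1.33 and 1.26 in HFD and 1.34, 0.373 and 0.657 in LYC, so that LYC1 stood with the HFD libraries in this ratio. These orders were noticed in the values and were not tested.

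Bhlhe40 had the highest mean level of the 9 genes over the 6 libraries (20.9 RPKM). This mean pools both groups, Dbp was at 19.7 RPKM by the same mean, and within LYC Dbp was first (34.9 against 21.3 RPKM). The genes tested with the pattern most like it over these 6 libraries were Pitrm1 (Pearson r = 0.98), Slc15a4 (r = 0.96), Eif4b (r = 0.95), Eif4enif1 (r = 0.93) and Dusp6 (r = 0.93), on log2(RPKM / TMM factor + 1). Of 5768 genes compared, 11 had r above 0.9. The libraries differ in depth, and these values describe 6 points only. Dusp6 had 7.87, 20.7 and 14.6 RPKM in HFD and 19.9, 8.05 and 6.94 RPKM in LYC.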
